A study of Mus musculus with 40 samples.

Results

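The enzymes described here supply NADPH, the reducing agent that cells spend on detoxification and synthesis, or UDP-glucuronic acid, the sugar donor of glucuronidation. They were picked as a group by symbol, with earlier results of these data known, so the counts of members called below are a description: transaldolase (TALDO1), malic enzyme (ME1) and UDP-glucose dehydrogenase (UGDH), with glucose-6-phosphate dehydrogenase (G6PDX), 6-phosphogluconate dehydrogenase (PGD) and transketolase (TKT) where the count table holds a row. Of these, TALDO1, ME1, UGDH and G6PDX had 1 probe row each, 4 of 3045 rows and 4 of 2756 symbols, and PGD and TKT had none. All 4 rows passed the filter on low counts. The series measured RNA from the duodenum of male wildtype B6C3F1 mice, a hybrid laboratory strain, with TempO-Seq, a targeted assay that joins pairs of probes lying side by side on an RNA and counts the joined product by sequencing. The tissue was formalin-fixed and paraffin-embedded, and was scraped off mounted sections into lysis buffer. Its 40 libraries are 5 controls and 7 libraries for each of 5 exposures of 28 days. Hexavalent chromium (Cr(VI), 180 ppm) was given in drinking water, captan (6000 ppm, 12000 ppm) and folpet (6000 ppm, 16000 ppm) with the feed. Both fungicides carry a trichloromethylthio group bound to an imide nitrogen; the fused ring is partly saturated in captan and aromatic in folpet. The labels give no age of the animals and no vehicle or diet for the controls. Nor do they tie libraries to individual mice, and the p-values therefore rest on a spread between libraries that can be technical in part. In a whole-tissue sample, fewer cells of a type and less RNA per cell cannot be told apart.

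The pentose phosphate pathway makes NADPH in its oxidative branch, which G6pdx opens and Pgd continues. Transaldolase and transketolase, in the other branch, pass carbon between the pentose phosphates and the intermediates of glycolysis. Cytosolic malic enzyme makes NADPH from malate, and Ugdh oxidises UDP-glucose to UDP-glucuronic acid, which the UDP-glucuronosyltransferases of the intestinal lining spend on drugs, bile pigments and dietary compounds. Several of these genes are known targets of NRF2, a transcription factor that answers electrophiles and oxidants by binding antioxidant response elements in DNA.

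Total counts ran from 1763440 to 7904819 per library, with captan 6000 ppm replicate 2 the lowest. Levels are counts scaled by TMM to a common library total (CPM), differences are log2 fold changes ± SE, and a row is said to have risen or fallen at a Benjamini-Hochberg adjusted p under 0.05 in edgeR's quasi-likelihood test over 2541 rows. The 5 comparisons with control share the 5 control libraries, so their results are not independent of each other. Of the rows called against control, 49.7% were higher after Cr(VI), 73.3% and 75.2% after the lower and higher dose of captan, and 74.1% and 62.8% after those of folpet. With library totals alone these shares were 21.4%, 100%, 94.9%, 98.0% and 73.7%, and with DESeq2's size factors they were 61.2% for captan 6000 ppm and 52.5% for folpet 16000 ppm. Transcripts of the pancreatic acinar list took 50.1% of the counts on average in control, 54.2% after Cr(VI), and 12.0% to 27.0% after captan or folpet.

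The 250 bases before the RefSeq start site of each gene (GRCm38.p6) were searched for TGACNNNGC, the core of the antioxidant response element, on both strands. Of 32851 RefSeq promoter windows of this length, 10.2% hold it. The Ugdh window, at chr5:65435843-65436092 on the minus strand, holds it at 132 to 124 bases and, on the other strand, at 94 to 86 bases before the start. The G6pdx window, at chrX:74428881-74429130 on the minus strand, holds it once, on the other strand, at 57 to 49 bases. The Taldo1 window, at chr7:141391910-141392159 on the plus strand, and both windows of Me1 on chromosome 9 do not hold these letters. The windows of Ugdh, which had the highest fold change of the 4 after each captan and folpet dose, of the gene that did not pass and of 1 that rose without a match are shown 5′ to 3′ along the gene's strand, with the matched letters in capitals. A match is a description of sequence and says nothing on binding.
Ugdh: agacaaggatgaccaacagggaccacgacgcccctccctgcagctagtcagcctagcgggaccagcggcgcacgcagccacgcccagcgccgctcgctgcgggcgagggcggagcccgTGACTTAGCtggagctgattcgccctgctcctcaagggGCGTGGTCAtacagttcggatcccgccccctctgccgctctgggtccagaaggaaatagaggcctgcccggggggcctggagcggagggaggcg
G6pdx: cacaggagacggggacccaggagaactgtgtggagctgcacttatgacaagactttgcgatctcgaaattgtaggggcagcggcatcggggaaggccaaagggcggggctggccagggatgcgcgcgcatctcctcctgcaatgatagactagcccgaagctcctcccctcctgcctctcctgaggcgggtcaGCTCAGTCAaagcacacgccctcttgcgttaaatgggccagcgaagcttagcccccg
Taldo1: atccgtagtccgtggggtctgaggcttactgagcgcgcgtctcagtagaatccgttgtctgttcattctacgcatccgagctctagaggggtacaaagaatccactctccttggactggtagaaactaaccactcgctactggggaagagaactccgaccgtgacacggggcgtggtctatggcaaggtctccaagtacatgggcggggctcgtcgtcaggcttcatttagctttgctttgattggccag

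Against control, Me1 and Ugdh rose after every exposure, Taldo1 rose after captan and folpet at each dose, and G6pdx did not pass in any comparison. The Ugdh call after Cr(VI) passed in only 5 of the 10 alternatives described below. After Cr(VI), 2 of the 4 genes rose, where 2.95% of all tested rows did, and 1 of them, Me1, had all exposed libraries above all controls, where 1.26% of rows did. After captan 6000 ppm 3 rose, against 3.78% of rows, and none of the 4 was free of overlap with control, against 1.53% of rows. After captan 12000 ppm 3 rose, against 4.64% of rows, and Me1 was free of overlap, against 1.65%. After folpet 6000 ppm 3 rose, against 4.60% of rows, and Taldo1 and Ugdh were free of overlap, against 2.99%. After folpet 16000 ppm 3 rose, against 7.91% of rows, and Taldo1, Me1 and Ugdh were free of overlap, against 4.25%. The median difference over all tested rows lay between −0.05 and 0.01 log2 in these comparisons.

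**Figure D1:**
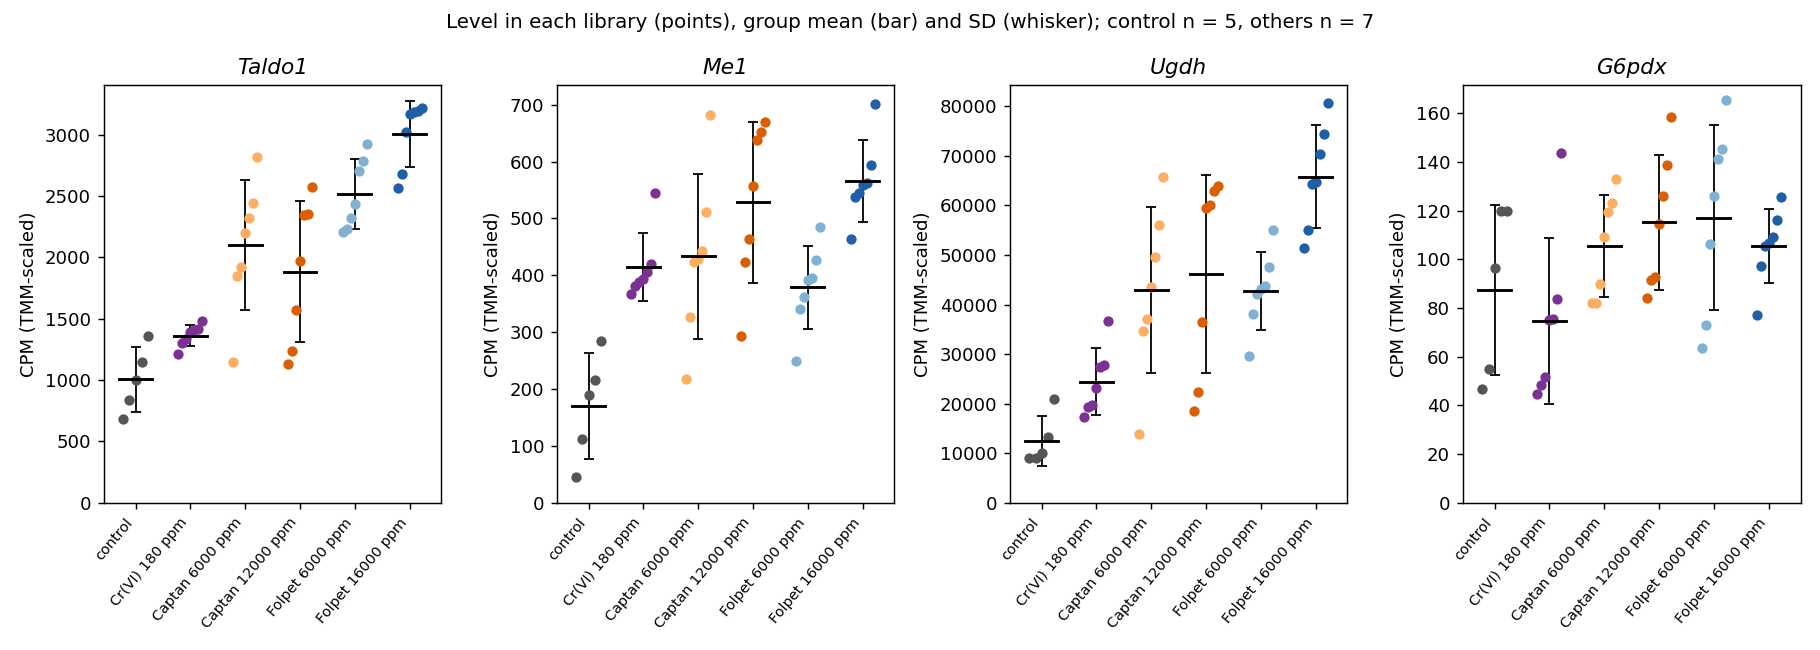
Level of each gene (CPM, TMM-scaled, linear axes from 0) in each of 40 libraries by exposure group; points are libraries, bars group means and whiskers SDs (control n = 5, others n = 7). The folpet 16000 ppm libraries lie above all controls for Taldo1, Me1 and Ugdh, while every exposed group overlaps control for G6pdx.

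G6pdx, the entry enzyme of the oxidative branch, was read at 119.9, 119.7, 55.0, 96.6 and 46.8 CPM in control replicates 1 to 5. Its 7 Cr(VI) libraries ran from 44.9 to 143.7 CPM with a median of 75.2. The captan 6000 ppm libraries ran from 81.9 to 133 CPM (median 109). All of these overlapped the controls. The captan 12000 ppm libraries ran from 83.9 to 158 CPM (median 114). The folpet 6000 ppm libraries ran from 63.5 to 165 CPM (median 126), and those of folpet 16000 ppm from 77.2 to 126 CPM (median 107). Of the 28 captan and folpet libraries 10 exceeded the highest control, so the groups overlapped throughout. The difference from control was −0.23 ± 0.26 log2 after Cr(VI) (95% interval −0.76 to 0.29, edgeR adjusted p = 0.729). After captan it was 0.26 ± 0.26 (−0.27 to 0.79, adjusted p = 0.700) at the lower dose and 0.39 ± 0.26 (−0.14 to 0.92, adjusted p = 0.457) at the higher. After folpet it was 0.41 ± 0.26 (−0.12 to 0.95, adjusted p = 0.437) and 0.26 ± 0.26 (−0.27 to 0.79, adjusted p = 0.640). Every upper bound for captan and folpet is below 1 log2 unit in this fit, so a doubling of G6pdx lies outside each interval. Smaller rises or falls lie inside it. Under the alternatives described below the estimates ran from 0.02 to 0.80 log2 after captan 12000 ppm and from 0.15 to 0.75 after folpet 6000 ppm. Intervals are not given for those fits, so the statement on a doubling does not extend to them. The row was not at its detection limit: it had 52 to 1283 counts per library.

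Taldo1, the transaldolase of the other branch, was read at 1144, 998, 841, 1363 and 684 CPM in the 5 controls. Its Cr(VI) libraries ran from 1210.2 to 1478 CPM with a median of 1388, close together and at the top of the control range, and 4 of 7 exceeded the highest control. The difference was 0.44 ± 0.18 log2 (95% interval 0.08 to 0.79), which did not pass (edgeR adjusted p = 0.133). It passed with DESeq2, at 0.45 log2 (adjusted p = 0.0490), the only 1 of the alternatives in which it did.

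After captan 6000 ppm Taldo1 ran from 1147 to 2818 CPM with a median of 2195, and 6 of 7 libraries exceeded every control. The exception was replicate 2, the shallowest library. The mean was 2099 ± 531 CPM (SD, n = 7) against 1006 ± 263 in control (n = 5), a rise of 1.06 ± 0.18 log2 (edgeR adjusted p = 1.59e-04). After captan 12000 ppm the libraries ran from 1133 to 2569 CPM (median 1974), with 5 of 7 above every control and replicates 1 and 2 inside the control range. The rise was 0.90 ± 0.18 log2 (edgeR adjusted p = 6.93e-04). It did not pass when the fit held the groups compared alone (0.93 log2, adjusted p = 0.0729), or with the level of enterocyte markers as a covariate (0.55 log2, adjusted p = 0.196).

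Folpet 6000 ppm gave 2209 to 2926 CPM of Taldo1 (median 2438), and folpet 16000 ppm 2568 to 3216 CPM (median 3168). All 14 folpet libraries lay above all 5 controls. The rises were 1.32 ± 0.18 log2 (edgeR adjusted p = 1.20e-06) and 1.58 ± 0.18 log2 (adjusted p = 2.41e-08). At the higher folpet dose Taldo1 was number 3 of the 2541 rows in order of p.

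Me1, the cytosolic malic enzyme, was read at 217, 190.1, 112, 284 and 45.9 CPM in the 5 controls, the widest control spread of the 4 genes (coefficient of variation 54.7%). The lowest value, of replicate 5, rests on 51 counts. That library was the lowest control for each of the 4 genes. It had 1460 rows with counts above 0 and 79.3% acinar transcripts. The Cr(VI) libraries ran from 367 to 544 CPM with a median of 393, all above the highest control. The rise was 1.28 ± 0.26 log2 (edgeR adjusted p = 0.00119). Of the 4 genes this was the only 1 whose Cr(VI) libraries did not overlap the controls. Without control replicate 5 the rise was 1.05 log2 and still passed, and with library totals alone it was 1.12 log2 and did not (adjusted p = 0.161).

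After captan 6000 ppm Me1 ran from 218 to 682 CPM (median 428), with 6 of 7 libraries above every control and replicate 2 inside the control range. The rise was 1.34 ± 0.26 log2 (edgeR adjusted p = 7.07e-04). After captan 12000 ppm it ran from 293 to 669.9 CPM (median 558), all above control, a rise of 1.63 ± 0.26 log2 (adjusted p = 3.91e-05). Folpet 6000 ppm gave 249 to 485 CPM (median 392), with replicate 5 the only library inside the control range, and a rise of 1.15 ± 0.26 log2 (adjusted p = 0.00266). Folpet 16000 ppm gave 464 to 702 CPM (median 559), all above control, and a rise of 1.73 ± 0.26 log2 (adjusted p = 5.87e-06). In fits of the compared groups alone the rises at the lower doses did not pass, at 1.34 log2 for captan (adjusted p = 0.0903) and 1.15 for folpet (adjusted p = 0.0625).

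Ugdh, the enzyme that makes UDP-glucuronic acid, was read at 9061, 10079, 13274, 20869.8 and 9017 CPM in the 5 controls. After Cr(VI) its libraries ran from 17213 to 36765 CPM with a median of 23104, and 4 of 7 exceeded the highest control. The rise was 0.97 ± 0.29 log2 (95% interval 0.39 to 1.56, edgeR adjusted p = 0.0368). This call rests on single libraries: leaving out control replicate 1, 2, 3 or 5, or Cr(VI) replicate 1, 6 or 7, gave 0.85 to 1.01 log2 with adjusted p from 0.0508 to 0.114. It did not pass with limma-voom (1.0 log2, adjusted p = 0.0734), with library totals alone (0.74, adjusted p = 0.334), in a fit of those groups alone (1.01, adjusted p = 0.149), without libraries over 50% acinar transcripts (1.4, adjusted p = 0.0764) or with the enterocyte marker covariate (0.77, adjusted p = 0.224).

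After captan 6000 ppm Ugdh ran from 13836 to 65779 CPM with a median of 43598. Only replicate 2 lay inside the control range. After captan 12000 ppm it ran from 18512 to 63932 CPM with a median of 59530.2, and again only replicate 2 lay inside that range. The rises were 1.79 ± 0.30 log2 (edgeR adjusted p = 1.59e-04) and 1.89 ± 0.30 log2 (adjusted p = 3.91e-05), or 3.45 and 3.71 times control. Within captan 12000 ppm the libraries were spread widely: replicates 1 and 2 held 22261 and 18512 CPM and replicate 6 held 36413, while the other 4 lay between 59530.2 and 63932. Replicates 1 and 2 were also the lowest of that group for Taldo1, but replicate 6 was the lowest for Me1.

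Folpet 6000 ppm gave 29570.2 to 55076 CPM of Ugdh (median 43086) and folpet 16000 ppm 51366 to 80631 CPM (median 64742). All 14 folpet libraries lay above all 5 controls. The rises were 1.78 ± 0.30 log2 (edgeR adjusted p = 1.06e-04) and 2.40 ± 0.31 log2 (adjusted p = 5.96e-07). At the higher dose this was 5.28 times the control level (95% interval 3.43 to 8.13), the highest fold of the 4 genes in any comparison with control. As a share of all counts, with no scaling, Ugdh took 0.472% to 1.92% in controls, 0.672% to 3.21% after Cr(VI), 1.63% to 7.43% and 2.81% to 8.26% after captan, and 3.58% to 7.04% and 5.26% to 7.66% after folpet.

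**Figure D2:**
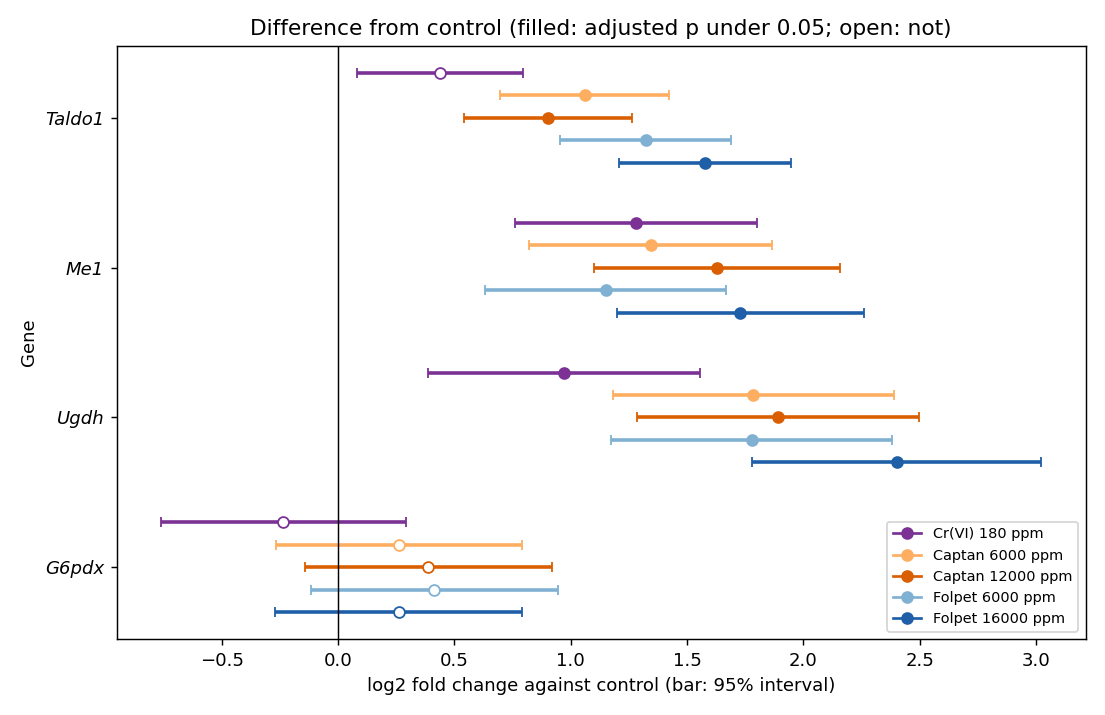
Difference from control (log2 fold change, horizontal axis) of each gene after each exposure; points are edgeR estimates, bars 95% intervals, and filled points passed at an adjusted p under 0.05. Ugdh reaches 2.40 after folpet 16000 ppm, and all 5 intervals of G6pdx include 0.

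Counted over libraries, Me1 exceeded its highest control in 26 of 28 captan and folpet libraries, Ugdh in 26, Taldo1 in 25 and G6pdx in 10. All 4 genes exceeded theirs in 10 of these libraries and none in 1, captan 6000 ppm replicate 2. That library had 1763440 counts and 35.8% acinar transcripts, the highest acinar share of its group. After Cr(VI) the counts were 7 of 7 for Me1, 4 for Taldo1, 4 for Ugdh and 1 for G6pdx. The biological coefficient of variation that edgeR fitted was 0.27 for Taldo1, 0.30 for Me1, 0.32 for G6pdx and 0.38 for Ugdh, below the median of 0.56 over all tested rows.

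The step between doses asks whether more fungicide gave higher levels. None of the 4 genes passed for captan 12000 against 6000 ppm, a comparison in which edgeR called 0% of rows (148 of 2541 at an unadjusted p under 0.05), and DESeq2 and limma-voom also called 0. The differences were −0.16 log2 for Taldo1 (95% interval −0.48 to 0.16), 0.29 for Me1 (−0.17 to 0.74), 0.11 for Ugdh (−0.41 to 0.63) and 0.13 for G6pdx (−0.35 to 0.60). For folpet 16000 against 6000 ppm none passed either, where 1.73% of rows did. Ugdh differed by 0.62 log2, or 1.54 times (95% interval 1.07 to 2.21, edgeR adjusted p = 0.283), and Me1 by 0.58 log2 (0.12 to 1.04, adjusted p = 0.239). Taldo1 differed by 0.26 (−0.07 to 0.58, adjusted p = 0.706) and G6pdx by −0.15 (−0.63 to 0.33, adjusted p = 0.981). In a fit of the folpet groups alone Ugdh (0.61 log2, adjusted p = 0.00308) and Me1 (0.57 log2, adjusted p = 0.00607) passed.

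Captan and folpet met at 1 dose, 6000 ppm, which sets the partly saturated against the aromatic ring system. None of the 4 genes passed in this comparison, where 0.157% of rows did, and edgeR's adjusted p was 1 for each. Captan minus folpet was −0.26 log2 for Taldo1 (95% interval −0.58 to 0.06), 0.19 for Me1 (−0.26 to 0.65), 0.0068 for Ugdh (−0.51 to 0.53) and −0.15 for G6pdx (−0.63 to 0.33). For Ugdh these intervals leave room for either compound to be higher by up to 1.44 times. The higher doses, 12000 ppm of captan and 16000 ppm of folpet, differ, and mean levels there were 1882 ± 576 and 3003 ± 271 CPM for Taldo1, 528 ± 141 and 566 ± 71.9 CPM for Me1, and 46221 ± 19988 and 65816 ± 10359 CPM for Ugdh (SD, n = 7 each).

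Against Cr(VI), folpet 16000 ppm was higher in Taldo1, 2.20 times (95% interval 1.76 to 2.76, edgeR adjusted p = 3.51e-06) and in Ugdh by 1.43 ± 0.26 log2 (adjusted p = 2.70e-04). That is 2 of 4 genes, against 5.35% of rows, and neither overlapped, against 3.50% of rows. Me1 differed by 0.45 log2 (95% interval −0.01 to 0.91, adjusted p = 0.271) and G6pdx by 0.49 (0.01 to 0.98, adjusted p = 0.243). In a fit of those groups alone Me1 passed (0.43 log2, adjusted p = 0.0157). Captan 12000 ppm was higher than Cr(VI) in Ugdh alone, by 0.92 ± 0.26 log2 (adjusted p = 0.0281), against 3.15% of rows. Taldo1 differed by 0.47 log2 (0.14 to 0.79, adjusted p = 0.0836), Me1 by 0.35 (−0.11 to 0.81, adjusted p = 0.501) and G6pdx by 0.62 (0.14 to 1.11, adjusted p = 0.127). The Ugdh calls did not pass without libraries over 50% acinar transcripts, at 1.23 log2 for folpet (adjusted p = 0.0546) and 0.63 for captan (adjusted p = 0.445). The captan call also ended with the acinar covariate (0.98 log2, adjusted p = 0.115), the enterocyte covariate (0.84, adjusted p = 0.0651), the groups compared alone (0.90, adjusted p = 0.101) and limma-voom (0.81, adjusted p = 0.103). It ended as well when captan replicate 3, 4, 5 or 7 or Cr(VI) replicate 2, 3 or 4 was left out (0.82 to 0.91 log2, adjusted p from 0.0532 to 0.0678). Taldo1 passed for captan without captan replicate 1 (0.56 log2, adjusted p = 0.0254) or 2 (0.55, adjusted p = 0.0295), and G6pdx passed without Cr(VI) replicate 6 for captan (0.86, adjusted p = 0.0218) and folpet (0.74, adjusted p = 0.0475). With library totals alone all 4 genes passed for captan.

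Of 14 symbols listed for the pentose phosphate pathway, 4 had a row. Taldo1 was the only 1 of the 4 to rise in any comparison with control, and none fell. Of all tested rows, 2.95% to 7.91% rose and 1.38% to 4.68% fell in these comparisons. The ribose 5-phosphate isomerase Rpia, which joins both branches, lay between −1.49 ± 0.69 and −0.77 ± 0.69 log2 (lowest edgeR adjusted p = 0.203), and the ribokinase Rbks between 0.27 ± 0.43 and 0.65 ± 0.43. The list's median differences were 0.08 log2 after Cr(VI), 0.31 and 0.44 after captan, and 0.34 and 0.46 after folpet. Of 17 symbols listed for other NADPH sources, 5 had a row. Me1 rose in all 5 comparisons with control. The mitochondrial malic enzyme Me2 lay between −0.46 ± 0.41 and 0.09 ± 0.41 log2 and did not pass.

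On the UDP-sugar side, 14 of 29 listed symbols were tested. Ugdh, which rose against control after every exposure, is 1 of them and is counted again here. Its call after Cr(VI) passed in 5 of 10 alternatives and in 5 of 12 fits with a library left out. After Cr(VI) 1 rose and 1 fell, where 2.99% of all rows fell. After captan 3 and 5 rose, and after folpet 2 and 5 rose, with none falling. Of all tested rows, 2.95% rose after Cr(VI), 3.78% and 4.64% after captan and 4.60% and 7.91% after folpet. The list's medians were 0.35 log2 after Cr(VI), 0.92 and 0.94 after captan, and 0.68 and 1.23 after folpet. The row named Pgm2 is a phosphoglucomutase, but the mouse symbols Pgm1 and Pgm2 have been exchanged between annotations, so which of these enzymes its probe reads is uncertain. It rose after captan, by 1.61 ± 0.37 log2 at each dose (edgeR adjusted p = 0.00486 and 0.00446). It rose by 1.72 ± 0.37 (adjusted p = 0.00190) and 2.08 ± 0.37 (adjusted p = 1.26e-04) after folpet, and after Cr(VI) it stood at 0.67 ± 0.36 (adjusted p = 0.298). Pgm2 levels were 32.9 to 112 CPM in control and 178 to 418 CPM after folpet 16000 ppm, with no overlap.

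Among the transferases that spend UDP-glucuronic acid, Ugt1a6a rose after captan 6000 ppm (0.77 ± 0.23 log2), captan 12000 ppm (0.79 ± 0.23) and folpet 16000 ppm (1.07 ± 0.23, edgeR adjusted p = 8.75e-04). Ugt1a7c rose after captan 12000 ppm (1.21 ± 0.33 log2) and folpet 16000 ppm (1.41 ± 0.33, adjusted p = 0.00289). Ugt2b35 fell after Cr(VI), by 0.95 log2 (adjusted p = 0.0383), and was higher after folpet 16000 ppm than after Cr(VI) by 1.67 ± 0.27 log2 (adjusted p = 6.06e-05). The Ugt1a genes share exons and the Ugt2b genes are near-identical in part, so these calls are uncertain as single genes.

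**Figure D3:**
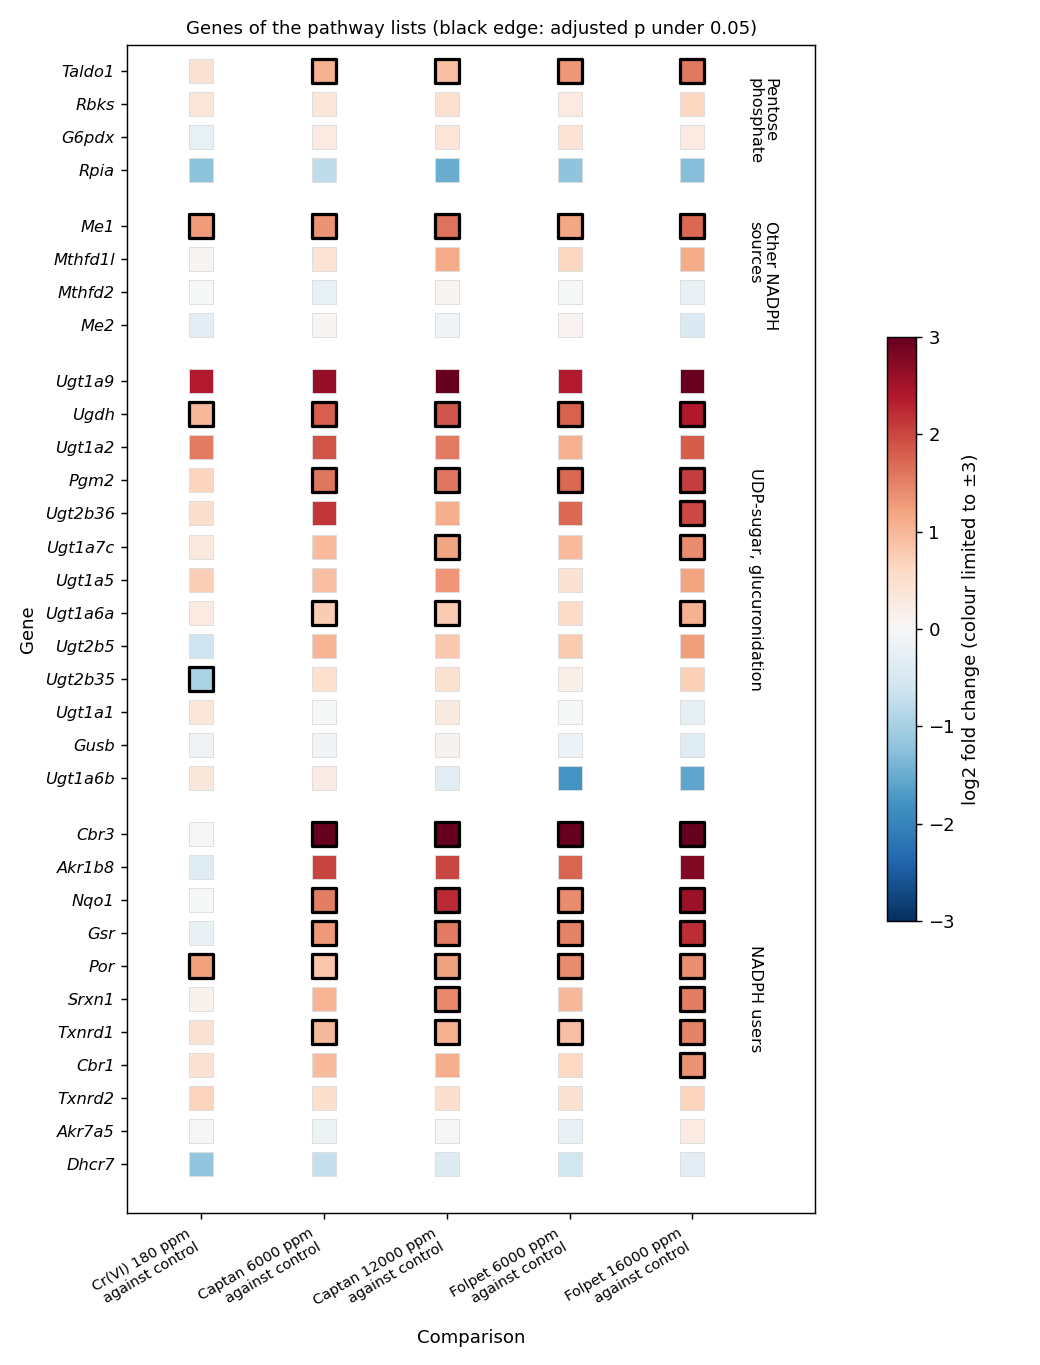
Difference from control (log2 fold change, colour, limited to ±3) for genes of 4 lists (rows) after each exposure (columns); a black edge marks an adjusted p under 0.05. In the pentose phosphate list Taldo1 alone has black edges, while Pgm2 has them beside Ugdh in the 4 captan and folpet columns.

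Enzymes of redox and detoxification, not all of which spend NADPH themselves, were described from a list of 21 symbols, of which 11 were tested. After Cr(VI) 1 rose (of all rows 2.95%), after captan 5 and 6 rose (3.78% and 4.64%), and after folpet 5 and 7 rose (4.60% and 7.91%). The medians were 0.02 log2 after Cr(VI), 0.97 and 1.22 after captan, and 0.96 and 1.48 after folpet. Por, the electron donor of the cytochromes P450, rose in all 5 comparisons, by 1.22 ± 0.19 log2 after Cr(VI) (edgeR adjusted p = 5.68e-05) and 1.39 ± 0.19 after folpet 16000 ppm (adjusted p = 6.72e-07). Glutathione reductase, Gsr, stood at −0.20 ± 0.30 log2 after Cr(VI) and rose by 2.22 ± 0.32 after folpet 16000 ppm (adjusted p = 5.75e-06). The quinone reductase Nqo1 stood at 0.00 ± 0.40 and rose by 2.56 ± 0.44 in the same comparisons, and the carbonyl reductase Cbr3 at 0.02 ± 0.55 and by 4.75 ± 0.67. Folpet 16000 ppm was higher than Cr(VI) by 2.41 ± 0.29 log2 in Gsr (adjusted p = 8.24e-07), 2.56 ± 0.39 in Nqo1 (adjusted p = 2.90e-05) and 4.73 ± 0.58 in Cbr3 (adjusted p = 1.29e-06). Por differed there by 0.16 ± 0.17 (adjusted p = 0.743).

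Fat synthesis, another use of malic enzyme's NADPH, was described from 5 tested genes of 17 listed. None rose in any comparison with control, where 2.95% to 7.91% of all tested rows did, so for 5 genes this lies near the share over all rows. The elongase Elovl5 fell after folpet 16000 ppm by 0.93 log2 (edgeR adjusted p = 0.0485), where 4.68% of all rows fell. The fatty acid synthase Fasn lay between −0.73 ± 0.31 and 0.40 ± 0.32 log2 and did not pass. Of 5 tested genes at the entry of glycolysis, the aldolase Aldoa rose in all 5 comparisons, by 0.80 ± 0.20 to 1.57 ± 0.21 log2. The phosphofructokinase Pfkl rose by 1.49 ± 0.34 log2 after Cr(VI), 1.50 ± 0.34 after captan 12000 ppm and 1.66 ± 0.34 after folpet 16000 ppm. Of 4 tested genes of glutathione synthesis, none changed after Cr(VI), and 1, 2, 1 and 3 rose after captan 6000, captan 12000, folpet 6000 and folpet 16000 ppm. Gclm, the regulatory subunit of the first enzyme, rose by 0.86 ± 0.26, 1.03 ± 0.26 and 1.34 ± 0.26 log2 after captan 6000, folpet 6000 and folpet 16000 ppm, and stood at 0.70 ± 0.25 after captan 12000 ppm (adjusted p = 0.0863). Of 9 tested genes of the NRF2 system, a list that shares members with those above, 1 rose after Cr(VI), 3 and 5 after captan and 4 and 6 after folpet, with medians of 0.12, 0.86, 1.35, 0.96 and 1.50 log2. The shares of all rows that rose, for this list and that of glutathione synthesis, were 2.95% after Cr(VI), 3.78% and 4.64% after captan, and 4.60% and 7.91% after folpet.

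Likeness of pattern was measured as the root mean square difference between the 6 group means of log2 CPM, each row centred on its own mean, with no test. For Taldo1 the closest rows were the chemokine receptor Ccr6 (0.10), Gclm (0.12), the glutathione transferase Gstp1 (0.12), the transporter Abcc3 (0.14) and catalase, Cat (0.14), against a median of 0.60 over all rows. For Ugdh the closest was Pgm2 (0.11), followed by Zwilch (0.16), Zzz3 (0.18), Slc27a3 (0.20) and Mthfd1l (0.20), against a median of 0.79. For Me1 they were Nsdhl (0.08), Ech1 (0.09), Bphl (0.11), Rbks (0.13) and Ralb (0.13), against a median of 0.67. The 3 genes were less like each other: Taldo1 was number 44 and Me1 number 64 in Ugdh's order, with differences of 0.31 and 0.34. In Taldo1's order Ugdh was number 112 and Me1 number 391, and Taldo1 and Me1 differed by 0.41. The group means order Me1 with Cr(VI) level with captan 6000 ppm (8.68 and 8.69 log2 CPM), whereas Ugdh stands at 14.53 after Cr(VI) and 15.26 after captan 6000 ppm, and Taldo1 at 10.41 and 10.99.

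Transcripts of other tissues also differed between control and some of the exposed groups. The acinar list (20 of 36 symbols measured, none at 0 in any whole group) took 21.8% to 79.3% of the counts in control, and its share was lower after captan 6000 ppm (exact 2-sided permutation p = 0.0202, adjusted over 5 comparisons 0.0337), captan 12000 ppm (p = 0.0164, adjusted 0.0337), folpet 6000 ppm (p = 0.0152, adjusted 0.0337) and folpet 16000 ppm (p = 0.0366, adjusted 0.0458), but not after Cr(VI) (p = 0.780). Without the 7 libraries over 50% acinar, which leaves 3 controls and 3 Cr(VI) libraries, the rises of Ugdh after captan and folpet were 2.02 to 2.63 log2, those of Taldo1 0.88 to 1.61 and those of Me1 1.16 to 1.73, and all of these passed. With the acinar share as a covariate the rises of Taldo1, Me1 and Ugdh against control all passed as before. As a share of all counts, Ugdh took 0.988% to 1.92% in the 3 controls with 21.8% to 42.1% acinar transcripts. Captan 6000 ppm replicate 2, with 35.8% acinar transcripts, had 1.63%. Other captan and folpet libraries with 21.8% to 42.1% acinar transcripts had 3.58% (folpet 6000 ppm replicate 2) to 6.38% (captan 6000 ppm replicate 3).

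**Figure D4:**
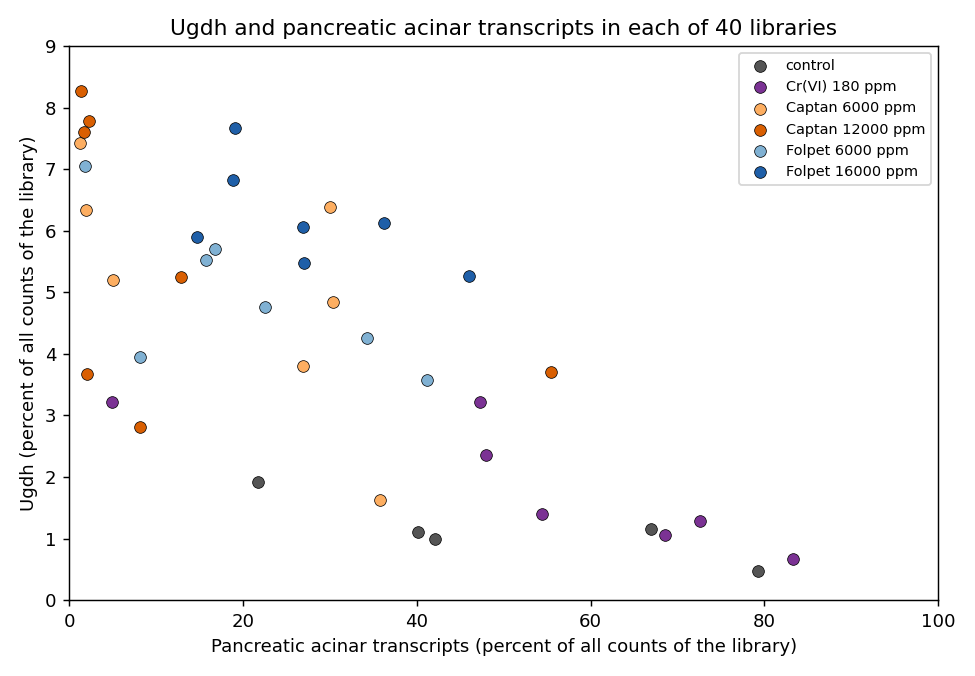
Ugdh against pancreatic acinar transcripts, each as percent of all counts of a library, for 40 libraries coloured by group. Controls lie between 0.472% and 1.92% Ugdh, and the folpet 16000 ppm libraries between 5.26% and 7.66% with 14.7% to 46.0% acinar transcripts.

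Lists for enterocytes and for Brunner's glands, which lie in the duodenum, were looked at beside the duodenal label. Of 2 symbols listed for Brunner's glands 0 had a row, so the check covers enterocyte transcripts and not the part of the intestine. Of 19 symbols listed for enterocytes 5 had a row (Klf4, Apoc3, Apoa1, Fabp1 and Fabp2), and each was above 0 in all 40 libraries. Their summed level was 17146 to 60628 CPM in control, with replicate 5 the lowest, 60437 to 80156 after Cr(VI), 56240.4 to 88052 after captan and 44545 to 97756 after folpet. After Cr(VI) 3 of these 5 rose, after captan 3 and 4, and after folpet 2 and 4. The shares of all tested rows that rose were 2.95% after Cr(VI), 3.78% and 4.64% after captan, and 4.60% and 7.91% after folpet. A covariate built from these markers therefore also takes up exposure differences. With that covariate, chosen after the data were seen, Me1 stood at 0.81 log2 after Cr(VI) (edgeR adjusted p = 0.0277), 0.81 (adjusted p = 0.0791) and 0.93 (adjusted p = 0.0405) after captan, and 0.73 (adjusted p = 0.0457) and 1.02 (adjusted p = 0.00806) after folpet. Ugdh stood at 1.56 and 1.61 after captan and 1.59 and 2.11 after folpet, and passed in all 4. Summed immune markers (10 of 11 measured genes tested) ran from 9034 to 27615 CPM in control and from 2395 to 6703 CPM after folpet 16000 ppm. In the order Cr(VI), captan 6000 and 12000, folpet 6000 and 16000 ppm, 3, 1, 2, 2 and 4 of these 10 fell, as did 1, 2, 2, 2 and 3 of 6 smooth muscle markers and 0, 2, 2, 1 and 2 of 8 stromal markers. In the same order, 2.99%, 1.38%, 1.53%, 1.61% and 4.68% of all tested rows fell. Of 4 liver markers measured, 2 were at 0 in every control. The part that cell composition takes in these differences was not tested beyond these values.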

How the data were processed

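RNA from mouse duodenum was read by TempO-Seq in 40 libraries. The authors deposited 1 table of raw counts per probe, and per the submitters' processing notes bcl2fastq 2.17.1.14, Bowtie (no version given) and the mm9 build were used, with no roles stated. Table columns were matched to samples by title, and groups came from the treatment label. The labels give no replicate numbers; those used here run in accession order as mere names, and nothing is paired. No 2 libraries were identical. Of all values 28.5% were 0, and 289 symbols have 2 rows.

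The counts went into edgeR 4.0.16 (R 4.3.3): filterByExpr (minimum count 10, minimum total count 15) left 2541 rows, TMM gave the scaling, and the quasi-likelihood fit (robust, 6 group means, 34 residual degrees of freedom) used every library. Tests are 2-sided, with Benjamini-Hochberg adjustment over the tested rows of each of 10 comparisons. The SE was approximated from the fold change and the root of its F statistic, and log2 CPM values use a prior count of 2. The scripts were tested on simulated data. Alternatives were other scalings, no filter, DESeq2 1.42.0, limma-voom (limma 3.58.1), covariates, subsets of libraries and leaving out each library. The members and gene lists were chosen with earlier results of these data known. Genes named from a list are up to 6 that passed in a comparison with control, by lowest p. Rpia, Rbks, Me2, Fasn and the enterocyte markers were added outside that rule after their values were seen. Some genes of the lists are counted but not reported here by name. Where a symbol has 2 rows, lists use that with more counts. Counting depth limits the low rows, and the probe sequences were not used here.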

Additional observations from a re-analysis of the deposited data

Results flagged for a closer look

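Of 24 gene and group sets of 5 or 7 libraries checked for a library that stands apart by Dixon's 95% limit, 2 held one, where chance flags about 1 in 20 groups. Me1 was at 544 CPM in Cr(VI) 180 ppm replicate 5, and the next highest of its group was at 420 CPM (419.9). That library had 4.99% acinar transcripts, while the other 6 of its group had 47.3% to 83.3%. G6pdx was at 144 CPM (143.7) in Cr(VI) 180 ppm replicate 6, and the next highest was at 83.7 CPM.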

How the results depend on the processing

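Each of the 4 genes was refitted in 10 comparisons under 10 alternatives and with each library left out. The count of genes called against control stayed at 2 or 3 after captan 6000, captan 12000 and folpet 6000 ppm and at 3 after folpet 16000 ppm in every fit. For Cr(VI) against control it was 0 with library totals alone, 1 without libraries over 50% acinar, with the groups compared alone, with limma-voom and with the enterocyte covariate, 3 with DESeq2, and 1 to 2 with a library left out. For captan 12000 ppm against Cr(VI) it was 4 with library totals alone, 0 with the acinar share or the enterocyte markers as covariate, without libraries over 50% acinar, with the groups compared alone and with limma-voom, and 0 to 2 with a library left out. For folpet 16000 ppm against Cr(VI) it was 1 without libraries over 50% acinar, 3 with the groups compared alone and 2 to 3 with a library left out, and for the folpet dose step 2 with those groups alone. The causes of these shifts were not tested. Signs turned in differences that had not passed. Ugdh in captan against folpet at 6000 ppm was −0.0043 with DESeq2's size factors and with DESeq2, −0.0025 without acinar rows, −0.0028 with no filter, −0.025 with the enterocyte covariate, −0.0031 without libraries over 50% acinar, −0.0020 with the groups alone and −0.082 with limma-voom. It was −0.13, −0.081 and −0.038 without captan replicate 3, 4 or 7, and −0.020, −0.0024 and −0.077 without folpet replicate 2, 3 or 4, in a leave-one-out range of −0.13 to 0.16. Ugdh for the captan dose step was −0.048 without captan 6000 ppm replicate 2, in a range of −0.048 to 0.25, and Taldo1 for the folpet step −0.033 with library totals alone. G6pdx was −0.014 after captan 6000 ppm and −0.12 after folpet 16000 ppm with the enterocyte covariate. Library totals alone moved the median over all rows to −0.30 log2 after Cr(VI), 0.33 and 0.44 after captan and 0.28 after folpet 6000 ppm. DESeq2's size factors moved it to −0.13 after folpet 16000 ppm.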
